A study of Mus musculus with 18 samples.

Results

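Hippocampus was compared with prefrontal cortex in male C57BL/6J wildtype mice that had been given PBS, across every gene of the deposited FPKM table. The comparison uses 6 of the 18 libraries of the series, 3 of hippocampus and 3 of prefrontal cortex, chosen by genotype, treatment and tissue as their titles give them. The study asked what extracellular vesicles from human breast milk do in 5xFAD mice, a line that carries mutated human transgenes of familial Alzheimer's disease under the Thy1 promoter and forms amyloid plaques. Its other 12 libraries come from male 5xFAD mice given PBS or the vesicles, 3 per tissue and treatment, and serve below as separate libraries in which to look for the same regional differences. PBS, or the vesicles, went into a vein every 3 days, 10 injections in all, between 5 and 6 months of age. Behavioural tests followed, and the mice were perfused with cold PBS before the tissue was taken. The wildtype mice are thus injected and behaviourally tested animals, not naive ones. The labels do not say that the 3 libraries of a tissue are separate mice, nor that equal replicate numbers in both tissues mark the same mouse. All p-values therefore measure the spread among these libraries, some of which may be technical.

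The hippocampus is an infolded cortex of few layers. Granule cells of the dentate gyrus send mossy fibres to pyramidal cells of field CA3, which project to CA1, and CA1 cells pass the signal on to the subiculum. Prefrontal cortex is layered neocortex, in which upper-layer neurons connect cortical areas with one another and deep-layer neurons project to the thalamus, brainstem and striatum. The hippocampus lies along the lateral ventricle, whose wall is lined by ciliated ependymal cells and whose choroid plexus secretes cerebrospinal fluid. A dissected frontal block borders the striatum behind and the olfactory bulb in front.

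The 6 libraries held between 31328698 and 36365571 reads in listed genes, so that a single read equalled 0.00855 to 0.00993 FPKM for a gene of the median length. Levels below are FPKM, which are scaled to gene length and library size, and can be compared between genes. The first principal component of the tested genes held 65.1% of the variance and separated the tissues, and the second held 19.1%. Libraries also differed from their common mean by a trend over log2 gene length. Its slope was 0.064, -0.030 and -0.095 in hippocampus replicates 1, 2 and 3, and 0.058, -0.075 and 0.080 in those of prefrontal cortex. In each library the second component had the sign of this slope, and what lies behind the trend was not tested. A gene was tested if at least 3 of the 6 libraries reached 0.5 FPKM, which left 12821 of 18683 genes. Fold changes are differences of log2(FPKM + 0.5), hippocampus minus prefrontal cortex, and understate the change of low genes. Standard errors (SE) and adjusted p-values come from limma with Benjamini-Hochberg adjustment over all genes tested, and a gene is called at an adjusted p under 0.05. "Higher", "rose", "lower" and "fell" are used of called genes and describe hippocampus relative to prefrontal cortex. In bulk tissue, fewer cells of a type and less RNA per cell cannot be told apart.

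Prox1 and C1ql2, markers of dentate granule cells, were higher in each hippocampal than in each prefrontal library, and the upper-layer neocortical marker Lamp5 was lower in each. These markers went with the tissue labels, but other members of their lists went the other way. Of 17 granule cell markers 9 were higher and 2 lower, and of 16 upper-layer markers 12 were lower and 2 higher.

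Of the 12821 genes tested, 1951 were called, which is 15.2%. In hippocampus, 1077 genes (8.4%) were higher and 874 (6.82%) were lower. The median log2 fold change was 0.04 over all genes, and the median size among called genes was 0.66. Differences of over 2-fold were called for 242 genes in the higher and 234 in the lower direction, together 3.71% of those tested. Over 4-fold, 41 genes were higher and 27 lower. None of the 1951 called genes had overlapping values between the tissues, while 33.9% of all tested genes had no overlap. Without prefrontal cortex replicate 1 the count of called genes dropped to 1252, of which 1227 were among the 1951. A set of 1128 genes was called in each of the 6 fits that left out a library and no called gene changed its direction in any of them. Genes that reached 0.5 FPKM in 3 libraries through hippocampus alone numbered 127, of which 109 were called higher, and 84 did so through prefrontal cortex alone, of which 64 were called lower. The gene lists below name 79 entries that were not tested, 74 of them below the filter and 5 not found in the table by symbol.

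**Figure D1:**
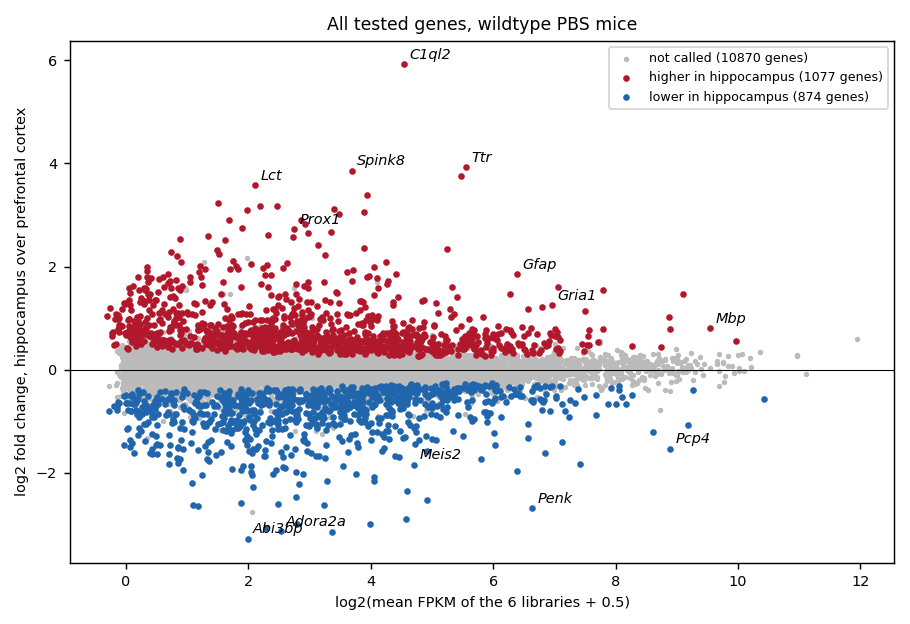
Log2 fold change of each tested gene (hippocampus over prefrontal cortex, vertical axis) against its mean level over the 6 wildtype libraries (log2 of mean FPKM + 0.5, horizontal axis), with the 1077 genes that were higher in hippocampus in red, the 874 that were lower in blue and the rest in grey. C1ql2 stands apart at the top with a log2 fold change of 5.92, and Abi3bp is at the bottom with -3.28.

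The gene with the largest difference was C1ql2, which encodes a C1q-like protein that granule cells secrete at mossy fibre synapses. It had 41.2, 44.5 and 50.3 FPKM in hippocampus, against 0.228, 0.319 and 0.22 FPKM in prefrontal cortex (log2 fold change 5.92, SE 0.11, adjusted p = 7.5e-08). The largest difference among transcription factors was that of Prox1, the homeobox factor that sets granule cell identity, with 13.2, 11.1 and 9.24 FPKM in hippocampus, against 1.3, 1.05 and 1.39 FPKM in prefrontal cortex (2.73, SE 0.15, adjusted p = 2.1e-05). For both genes the hippocampal libraries lay far above those of prefrontal cortex.

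In the other direction, Doc2g, a C2 domain gene known for its expression in the olfactory bulb, had 0.944, 1.38 and 1.24 FPKM in hippocampus, against 9.95, 37.6 and 7.6 FPKM in prefrontal cortex (-3.14, SE 0.49, adjusted p = 0.0033). Rxrg, a retinoid X receptor that is abundant in striatum, had 1.42, 1.23 and 2.42 FPKM in hippocampus, against 5.08, 6.91 and 12.9 FPKM in prefrontal cortex (-1.95, SE 0.32, adjusted p = 0.0039). Neither gene overlapped between the tissues, and the prefrontal libraries differed among themselves, with replicate 2 far the highest for Doc2g and replicate 3 for Rxrg.

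The promoters of these genes are shown because they are the largest rise and fall among named genes, and the largest rise and fall among transcription factors, that have an entry in the RefSeq promoter table (GRCm38.p6). Each holds 250 bases before and 50 after the annotated start, and for Prox1 and Rxrg, which have 2 promoters listed, the first is given. Capitals mark the E-box CAGATG or its reverse complement CATCTG, which do not overlap each other. This is the element bound by the neuronal basic helix-loop-helix factors of the Neurod family, 3 of which (Neurod1, Neurod2 and Neurod6) were higher in hippocampus. The stretches are chr1:120340332-120340631 on the plus strand for C1ql2, chr1:190170778-190171077 on the minus strand for Prox1, chr19:4003135-4003434 on the plus strand for Doc2g and chr1:167598112-167598411 on the plus strand for Rxrg, each written 5′ to 3′.
C1ql2: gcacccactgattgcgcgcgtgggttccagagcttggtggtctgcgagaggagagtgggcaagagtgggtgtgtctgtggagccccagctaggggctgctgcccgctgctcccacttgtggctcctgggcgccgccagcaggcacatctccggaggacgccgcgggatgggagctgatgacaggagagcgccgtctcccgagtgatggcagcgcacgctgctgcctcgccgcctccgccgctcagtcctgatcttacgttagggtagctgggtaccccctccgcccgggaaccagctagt
Prox1: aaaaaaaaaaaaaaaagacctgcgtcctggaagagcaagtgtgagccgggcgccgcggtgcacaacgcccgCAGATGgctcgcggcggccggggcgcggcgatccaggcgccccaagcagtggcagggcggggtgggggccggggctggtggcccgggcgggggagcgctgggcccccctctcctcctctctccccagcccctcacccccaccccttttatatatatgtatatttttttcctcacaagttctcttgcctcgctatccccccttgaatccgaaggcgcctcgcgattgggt
Doc2g: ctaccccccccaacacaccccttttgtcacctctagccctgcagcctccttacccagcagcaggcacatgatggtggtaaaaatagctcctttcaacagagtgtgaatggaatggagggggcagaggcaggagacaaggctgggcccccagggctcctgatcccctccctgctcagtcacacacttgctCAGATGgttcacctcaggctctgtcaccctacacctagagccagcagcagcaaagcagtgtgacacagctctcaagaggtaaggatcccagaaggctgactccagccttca
Rxrg: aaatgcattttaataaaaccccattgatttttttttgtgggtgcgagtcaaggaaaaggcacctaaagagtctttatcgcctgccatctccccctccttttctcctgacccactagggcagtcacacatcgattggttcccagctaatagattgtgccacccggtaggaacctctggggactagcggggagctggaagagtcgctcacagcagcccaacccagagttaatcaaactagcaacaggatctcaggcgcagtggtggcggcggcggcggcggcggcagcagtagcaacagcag
The element stands once in the Prox1 and once in the Doc2g window, and these letters are in neither of the other windows. Of the tested genes, 10231 had a promoter in the table. The element was found in 14.9% of the promoters of genes that were higher in hippocampus, in 13.1% of those of genes that were lower, in 10.8% of tested genes that were not called, and in 11.3% of all tested genes. The share over all promoters of the table was 17.2%. These shares are a description of the letters in the windows.

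**Figure D2:**
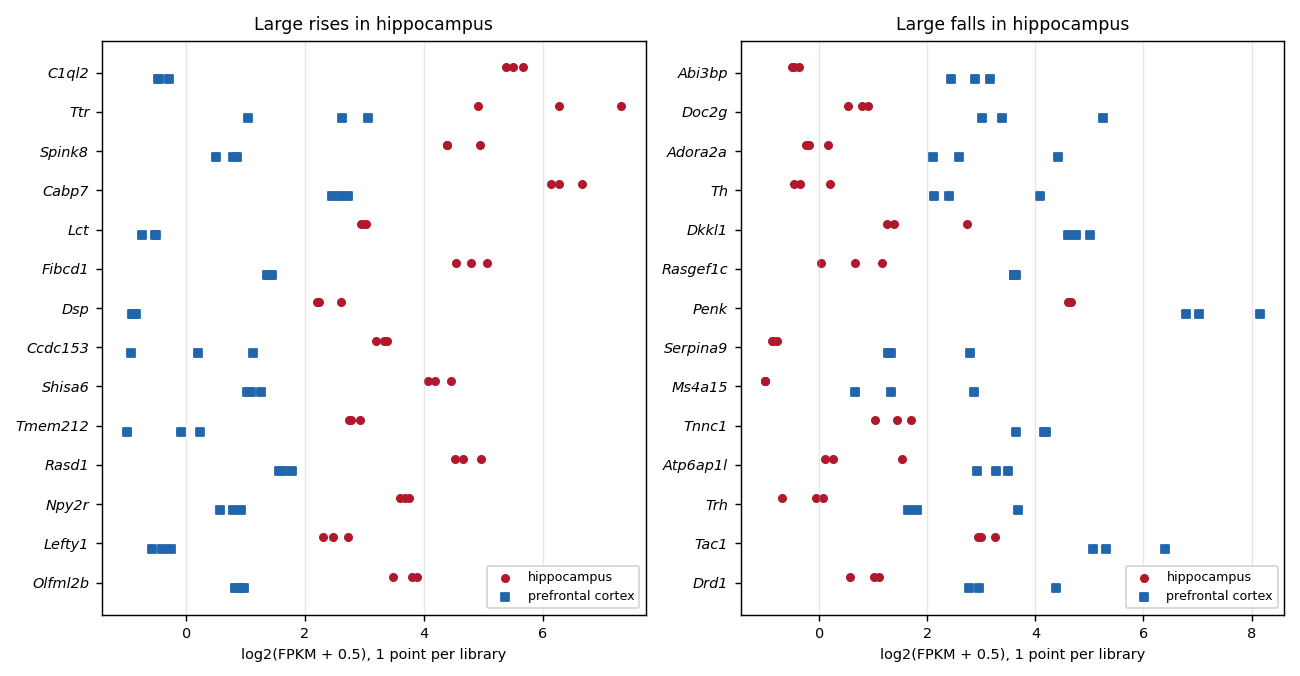
Level of 14 genes among the largest called rises and 14 among the largest called falls in each wildtype library (log2 of FPKM + 0.5, horizontal axis), with hippocampus as red circles and prefrontal cortex as blue squares, 3 libraries each. The genes were chosen from called genes without overlap between the tissues. Among the falls, the prefrontal libraries spread widely for Adora2a, Penk, Doc2g and Th.

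Several of the largest differences lay outside the cell type lists. Cabp7, a calcium-binding protein of the calmodulin superfamily, had 77, 69.5 and 101 FPKM in hippocampus, against 4.98, 6.11 and 5.55 FPKM in prefrontal cortex (3.76, SE 0.14, adjusted p = 6.7e-06). Rasd1, a small GTPase induced by dexamethasone, had 24.6, 22.5 and 30.6 FPKM in hippocampus, against 2.58, 2.95 and 2.44 FPKM in prefrontal cortex (3.06, SE 0.13, adjusted p = 7.2e-06). Lefty1, a secreted antagonist of Nodal signalling, had 5.01, 4.42 and 6.09 FPKM in hippocampus, against 0.333, 0.256 and 0.17 FPKM in prefrontal cortex (2.91, SE 0.15, adjusted p = 1.9e-05). For all 3 genes the lowest hippocampal library lay far above the highest prefrontal one. The olfactomedin-like gene Olfml2b (2.83) rose too.

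Abi3bp, a secreted matrix protein, was the gene that fell most, with 0.268, 0.2 and 0.221 FPKM in hippocampus, against 8.41, 6.84 and 4.91 FPKM in prefrontal cortex (-3.28, SE 0.18, adjusted p = 2.1e-05). Rasgef1c, a guanine nucleotide exchange factor, had 1.07, 1.75 and 0.526 FPKM in hippocampus, against 12, 11.6 and 11.7 FPKM in prefrontal cortex (-3.00, SE 0.24, adjusted p = 0.00015). Its prefrontal values were close together and far above the hippocampal ones. Serpina9, a serine protease inhibitor (-2.64), Tnnc1, a troponin C (-2.61), and Atp6ap1l (-2.60) fell as well.

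Genes of dentate granule cells made up several of the largest rises. Beside C1ql2 and Prox1, Lct, which encodes lactase, had 7.65, 7.19 and 7.56 FPKM in hippocampus, against 0.203, 0.196 and 0.098 FPKM in prefrontal cortex (3.58, SE 0.12, adjusted p = 3.2e-06). Dsp, the desmosomal plaque protein desmoplakin, had 5.6, 4.2 and 4.09 FPKM in hippocampus, against 0.038, 0.0555 and 0.0294 FPKM in prefrontal cortex (3.23, SE 0.14, adjusted p = 7.2e-06). Tdo2, a tryptophan dioxygenase (2.32), and Dock10, a guanine nucleotide exchange factor (1.21), rose as well. Over the list of 17 granule cell markers, 9 were higher and 2 lower, with a median of 0.47 against 0.04 over all genes. 4 of the 9 had passed the filter on low values through hippocampus alone. The members that fell were Sema5b (-0.70), a semaphorin, and Marcks (-0.66), a substrate of protein kinase C.

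CA1 pyramidal cell markers showed the same direction. Spink8, a serine protease inhibitor, had 20.5, 20.3 and 30.2 FPKM in hippocampus, against 1.3, 1.22 and 0.917 FPKM in prefrontal cortex (3.86, SE 0.17, adjusted p = 8.3e-06). Fibcd1, a chitin-binding receptor, had 27.3, 22.6 and 32.8 FPKM in hippocampus, against 2.07, 2.17 and 2.21 FPKM in prefrontal cortex (3.39, SE 0.13, adjusted p = 6.7e-06). Both genes had each hippocampal library at least several fold above every prefrontal library. Gpr161, an orphan receptor (2.61), Dcn, the proteoglycan decorin (2.08), and Pou3f1, a POU domain factor (1.22), rose too. In all 8 of 11 tested members were higher and 1 lower (median 0.68). Wfs1, the classical CA1 marker wolframin, was a weak call at 0.49 (adjusted p = 0.047) that held in 1 of the 6 fits without a library.

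Of the 15 tested markers of CA2 and CA3 pyramidal cells, 10 were higher and 1 lower, with a median of 0.84. Homer3, a postsynaptic scaffold protein, had 16.1, 15.6 and 19.4 FPKM in hippocampus, against 1.64, 2.82 and 2.46 FPKM in prefrontal cortex (2.66, SE 0.17, adjusted p = 4.4e-05). Tgfb2, a growth factor (2.08), Ntf3, the neurotrophin NT-3 (1.96), St18, a zinc finger factor (1.89), and Amigo2, an adhesion protein that marks CA2 and CA3 (1.47), were higher. Coch, a secreted protein best known from the inner ear, was lower (-1.67). Of 9 tested markers of hilar mossy cells, 0 were higher and 3 were lower (median -0.24), namely Drd2, a dopamine receptor shared with the striatal list (-2.03), Cpne5, a copine (-2.02), and Sv2c, a synaptic vesicle protein (-1.01). Without hippocampus replicate 2, and likewise without replicate 3, 1 of the mossy cell markers was lower. Without prefrontal cortex replicate 2 their median was 0.16, and 1 was higher and 3 were lower. Of 8 subiculum markers, 0 were higher and 2 were lower (median -0.12), Tpbg (-1.34) and the contactin Cntn6 (-1.10).

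Among 16 transcription factors that pattern or maintain the hippocampus, 8 were higher and 0 lower (median 0.38). 1 of these, Lhx9, had passed the filter through hippocampus alone. Nr3c2, the mineralocorticoid receptor, which hippocampal neurons are known to express strongly, had 22.1, 19 and 19.9 FPKM in hippocampus, against 4.69, 4.74 and 5.47 FPKM in prefrontal cortex (1.93, SE 0.10, adjusted p = 2e-05). Lhx9, a LIM homeobox factor, averaged 1.5 ± 0.219 FPKM in hippocampus and 0.0252 ± 0.0166 FPKM in prefrontal cortex (SD, n = 3 each), with a log2 fold change of 1.92. The neuronal factors Neurod6 (1.17) and Neurod2 (0.92), the nuclear receptor Nr2f2 (1.18) and the nuclear factor Nfix (0.70) rose. Lhx2 (0.40) was called but lost the call in 4 of the 6 fits without a library. Zbtb20, a zinc finger factor of hippocampal pyramidal cells, had 3.93, 2.39 and 1.49 FPKM in hippocampus, against 0.921, 0.889 and 1.58 FPKM in prefrontal cortex. Its values overlapped and its adjusted p was 0.075.

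Of 12 tested genes of adult neurogenesis, the production of new granule cells that continues in the dentate gyrus, 3 were higher and 4 lower (median -0.10). Among the higher ones were Hopx, a homeodomain protein of quiescent stem cells (1.17), and the proneural factor Neurod1 (1.11). The lower ones were Eomes (-1.80), Tbr1 (-1.32), Dcx, the microtubule protein of young migrating neurons (-1.09), and Sox4 (-0.81). Eomes and Dcx also stand in the olfactory list below, and Tbr1 in the deep-layer list. Without prefrontal cortex replicate 2 the median of the list was 0.03. The proliferation genes Mki67 and Top2a did not pass the filter.

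**Figure D3:**
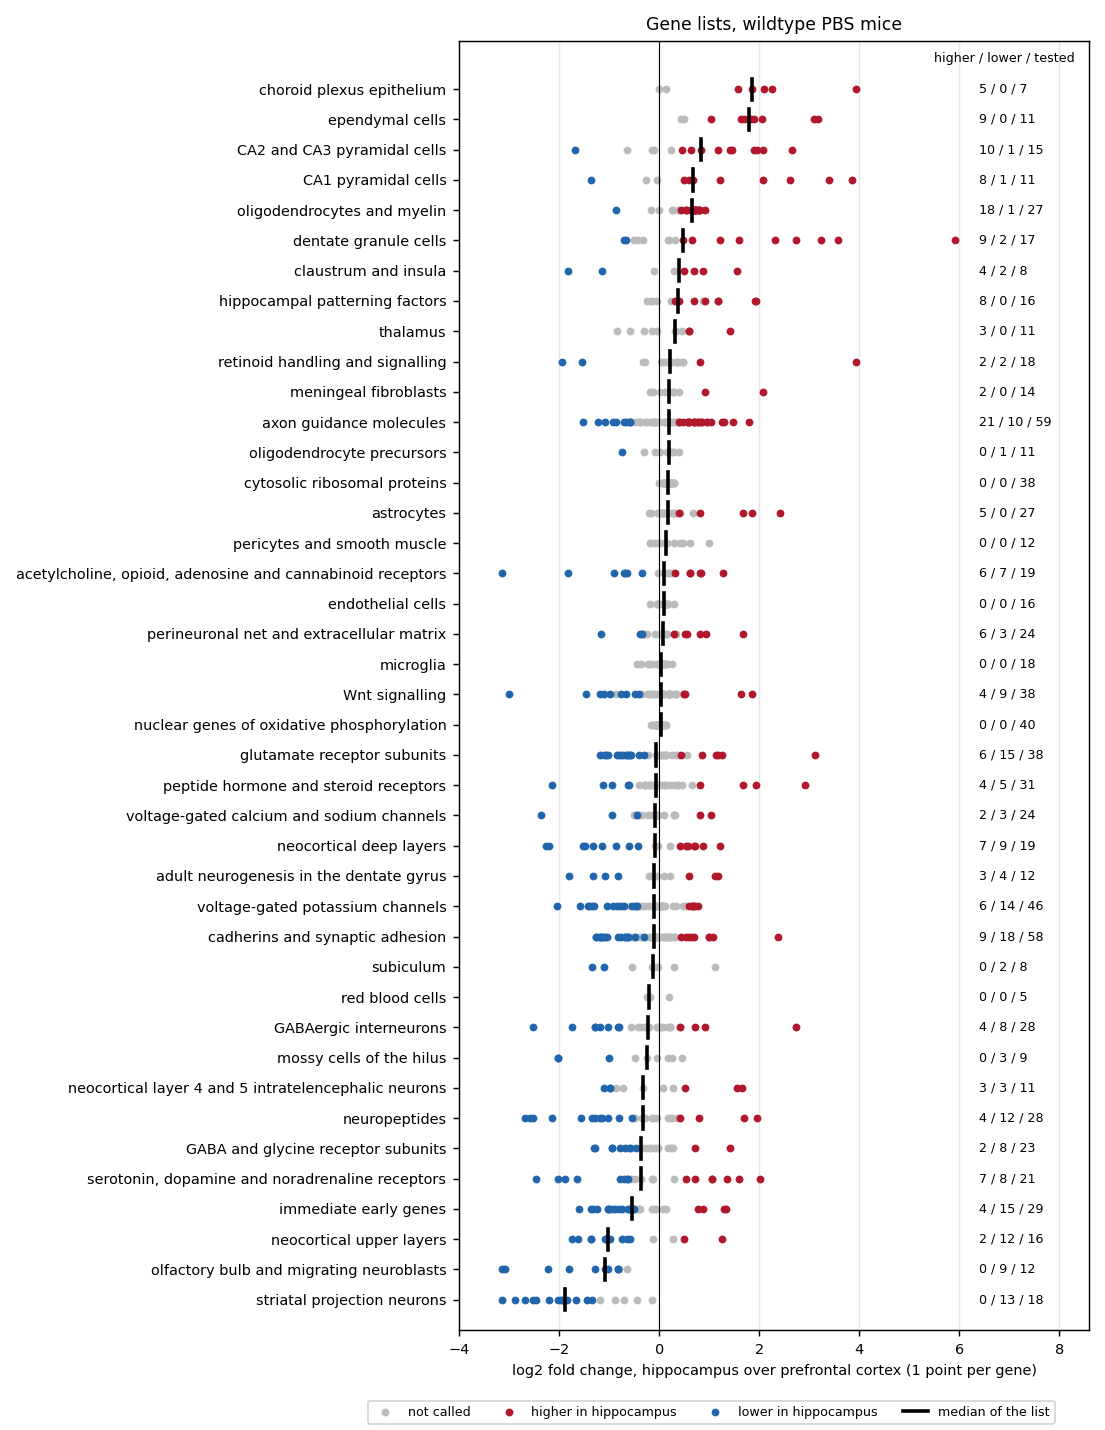
Log2 fold change (hippocampus over prefrontal cortex, horizontal axis) of the tested members of 41 gene lists, 1 point per gene, with called genes in red (higher in hippocampus) or blue (lower in hippocampus) and the list median as a black bar. The medians run from -1.89 for striatal projection neurons to 1.85 for the 7 choroid plexus genes that passed the filter on low values.

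Upper-layer neocortical markers fell as a rule. Of 16 tested, 12 were lower and 2 higher (median -1.01). Lamp5, a membrane protein of upper-layer neurons and of some interneurons, had 20.4, 33.8 and 22.9 FPKM in hippocampus, against 91, 88.3 and 76.6 FPKM in prefrontal cortex (-1.74, SE 0.17, adjusted p = 0.00039). Hippocampal replicate 2 was the highest of its group, and still lay well under every prefrontal library. Stard8 (-1.61), Pou3f2 (-1.36), Cux2 (-1.05), the layer 4 receptor Rorb (-0.99) and Cux1 (-0.63) fell. The members that rose were Mdga1, an adhesion protein that modulates neuroligins (1.25), and Wfs1.

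Markers of intratelencephalic neurons of layers 4 and 5 went both ways, with 3 of 11 higher and 3 lower (median -0.32). Tshz2, a zinc finger factor (1.66), Scnn1a, a sodium channel subunit (1.55), and Etv1, an ETS factor (0.53), rose, while Deptor, an inhibitor of mTOR (-1.11), Rorb and Tox (-0.97) fell. Deep-layer markers were split as well, with 7 of 19 higher and 9 lower (median -0.08). Syt6, a synaptotagmin of corticothalamic neurons, had 1.11, 0.928 and 0.799 FPKM in hippocampus, against 5.05, 6.44 and 8.08 FPKM in prefrontal cortex (-2.26, SE 0.17, adjusted p = 9.6e-05). Pcp4, a calmodulin regulator, had 248, 281 and 208 FPKM in hippocampus, against 639, 796 and 685 FPKM in prefrontal cortex (-1.53, SE 0.14, adjusted p = 0.00025). Foxp2 (-2.20), the heparan sulphatase Sulf1 (-1.49) and Tbr1 (-1.32) fell as well. In the other direction, Crym, a thyroid hormone binding protein (1.22), Nr4a2 (0.87), Npr3 (0.73), Hs3st4 (0.70) and Bcl6 (0.57) were higher. Fezf2, the factor that specifies subcortically projecting neurons, was called higher at 0.43 (adjusted p = 0.042), and this call held in 1 of the 6 fits without a library.

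Genes of striatal projection neurons gave the lowest median of the 41 lists. Of 18 tested markers of these inhibitory output cells of the striatum, 13 were lower and 0 higher (median -1.89). Adora2a, the adenosine receptor of indirect-pathway neurons, had 0.375, 0.341 and 0.617 FPKM in hippocampus, against 3.79, 5.52 and 21 FPKM in prefrontal cortex (-3.13, SE 0.50, adjusted p = 0.0038). Drd1, the dopamine receptor of direct-pathway neurons, had 1.65, 1.53 and 0.975 FPKM in hippocampus, against 6.3, 7.24 and 20.3 FPKM in prefrontal cortex (-2.47, SE 0.38, adjusted p = 0.003). Penk, the enkephalin precursor, had 23.9, 24.2 and 24.8 FPKM in hippocampus, against 110, 130 and 284 FPKM in prefrontal cortex (-2.69, SE 0.30, adjusted p = 0.00065). For each of these genes the tissues did not overlap, and prefrontal cortex replicate 3 was the highest library. Tac1 (-2.52), Drd2 (-2.03), Ppp1r1b, the phosphatase inhibitor DARPP-32 (-1.96), and Meis2 (-1.84) were lower. The prefrontal values of Meis2, a homeobox factor, were close to one another, at 36.2, 43.8 and 40.9 FPKM, beside 11.2, 11.9 and 9.56 FPKM in hippocampus.

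The summed level of the striatal list was 185 to 199 FPKM in the hippocampal libraries, and 423, 495 and 1056 FPKM in the prefrontal ones. Prefrontal cortex replicate 3 thus held more of these transcripts than the other prefrontal libraries. Without it, 15 members were lower and the median was -1.37. Without hippocampus replicate 2, and likewise without replicate 3, 9 members were lower, with medians of -1.83 and -1.78. 2 of the 18 members had passed the filter through prefrontal cortex alone. Whether striatal tissue in the dissected block takes part in these differences was not tested.

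Markers of the olfactory bulb and of neuroblasts that migrate to it were lower too, 9 of the 12 tested, with 0 higher (median -1.09). Beside Doc2g, Th, which encodes tyrosine hydroxylase, the rate-limiting enzyme of dopamine synthesis, had 0.224, 0.281 and 0.652 FPKM in hippocampus, against 4.78, 16.4 and 3.87 FPKM in prefrontal cortex (-3.08, SE 0.45, adjusted p = 0.0025). Cdhr1, a cadherin-related protein of bulb output neurons, had 1.86, 1.96 and 1.67 FPKM in hippocampus, against 7.83, 19.1 and 7.35 FPKM in prefrontal cortex (-2.22, SE 0.31, adjusted p = 0.0019). For all 3 genes prefrontal cortex replicate 2 was the highest library. Trh, a hypothalamic releasing hormone, had the same pattern, with 0.554, 0.463 and 0.123 FPKM in hippocampus, against 3, 12.2 and 2.6 FPKM in prefrontal cortex. Ms4a15, a membrane protein of the MS4A family, was listed at 0 in all 3 hippocampal libraries and had 2.02, 6.75 and 1.07 FPKM in prefrontal cortex.

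The summed olfactory list was 21.2 to 24.4 FPKM in hippocampus, and 52.7, 132 and 60.9 FPKM in prefrontal cortex. Without prefrontal replicate 2, 8 members were lower (median -0.97), whereas 5 were lower without hippocampus replicate 2 and 5 without hippocampus replicate 3. 2 members had passed the filter through prefrontal cortex alone. The part of olfactory tissue in the dissection was not tested. Eomes (-1.80), Sp8 (-1.28), Dlx1 (-0.82) and Dlx5 (-0.83) were called in 4, 4, 4 and 1 of the 6 fits that left out a library.

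**Figure D4:**
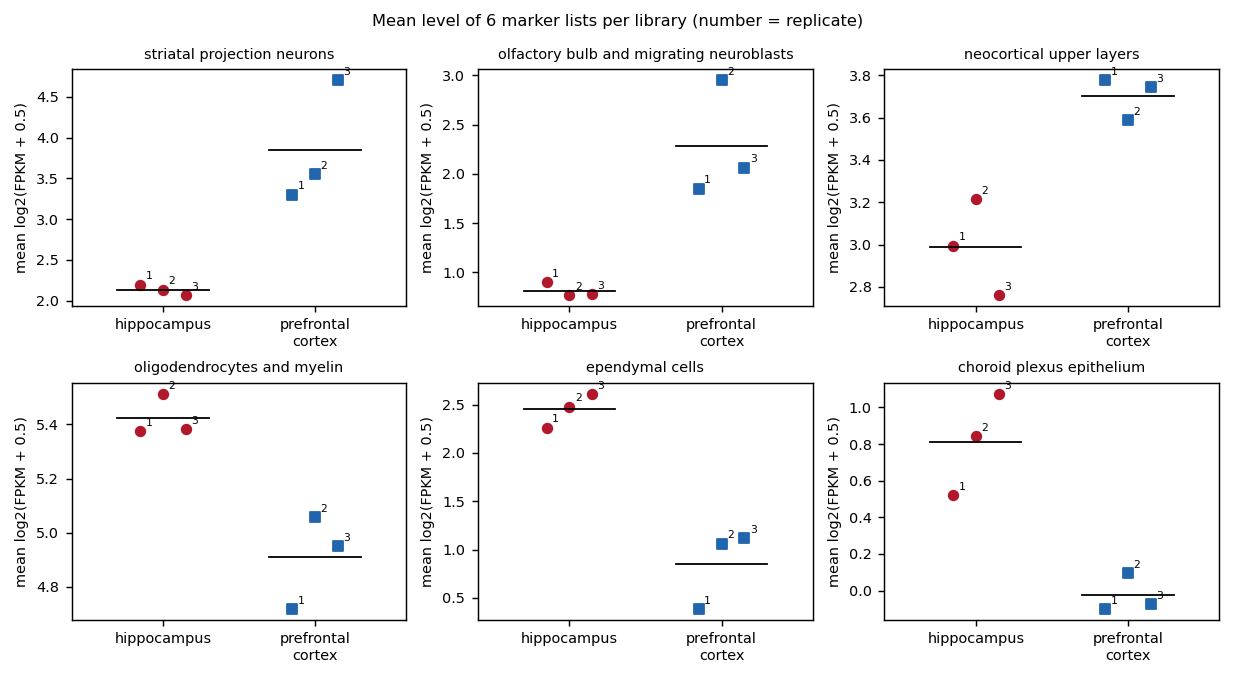
Mean log2(FPKM + 0.5) of 6 marker lists in each wildtype library (vertical axis, own scale in each panel), hippocampus on the left and prefrontal cortex on the right, with the replicate number beside each point and a line at the mean of 3 libraries. Prefrontal replicate 3 is the highest for striatal genes and prefrontal replicate 2 for olfactory genes, while the hippocampal libraries lie below every prefrontal library in both panels.

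Other neighbours of the dissected tissues gave medians of smaller size, and claustrum and insula markers went both ways. Of 8 claustrum and insula markers, 4 were higher and 2 lower (median 0.40), among them Nnat, an imprinted proteolipid (1.55), and Oprk1, the kappa opioid receptor (-1.83). Of 11 tested thalamus markers, 3 were higher and 0 lower (median 0.31). These were Prkcd, a protein kinase C also listed for CA2 and CA3 (1.41), Plekhg1 (0.60) and the vesicular glutamate transporter Slc17a6 (0.59). Tcf7l2, the Wnt effector that marks thalamus, had 0.527, 1.3 and 0.524 FPKM in hippocampus, against 0.421, 0.503 and 0.569 FPKM in prefrontal cortex, with overlapping values (adjusted p = 0.41). Without prefrontal cortex replicate 2, 5 thalamus markers were higher and 1 was lower. Without hippocampus replicate 2, 2 were higher and 1 was lower, and the median was 0.04. With library medians made equal, 3 were higher and 2 lower.

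Among 28 tested genes of GABAergic interneurons, 4 were higher and 8 lower (median -0.22). The peptides Vip and Npy fell. Vip had 11.6, 16.4 and 11.2 FPKM in hippocampus, against 32.9, 34.1 and 24.1 FPKM in prefrontal cortex (-1.19, SE 0.17, adjusted p = 0.0024). Npy averaged 104 ± 12.5 FPKM in hippocampus and 184 ± 40.5 FPKM in prefrontal cortex (SD, n = 3 each), a log2 fold change of -0.80. Crh (-1.29), Tac2 (-1.02), Lamp5, Tac1, Sp8 (-1.28) and Dlx1 (-0.82) fell with them. Of these, Tac1 also stands in the striatal list, Lamp5 in the upper-layer list, and Sp8 and Dlx1 in the olfactory list. Nos1, the neuronal nitric oxide synthase (0.92), and the serotonin receptor Htr3a (0.71) rose, as did Prox1, which interneurons also express. The general markers Gad1 (-0.28), Gad2 (-0.57), Slc32a1 (-0.41), Pvalb (0.17) and Sst (0.23) did not pass. The count of higher members was 2 without prefrontal cortex replicate 1, without prefrontal cortex replicate 3 or without hippocampus replicate 2.

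Oligodendrocyte and myelin genes were higher in hippocampus, 18 of 27, with 1 lower and a median of 0.66. Higher members numbered 12 without hippocampus replicate 2. They numbered 14, 19 and 15 without prefrontal cortex replicates 1, 2 and 3. Mbp, the myelin basic protein, averaged 950 ± 61.6 FPKM in hippocampus and 550 ± 115 FPKM in prefrontal cortex (SD, n = 3 each; 0.81, SE 0.16, adjusted p = 0.011). Mog, a surface glycoprotein of myelin, had 40.7, 46.1 and 42.8 FPKM in hippocampus, against 23.5, 29.2 and 26.6 FPKM in prefrontal cortex (0.70, SE 0.10, adjusted p = 0.002). Opalin (0.91), Mag (0.79), Mobp (0.79), the regulator Myrf (0.79), transferrin, Trf (0.72), and the lineage factor Sox10 (0.72) rose. Klk6, a myelin-associated protease, was lower (-0.86). Oligodendrocyte precursors differed little, with 0 of 11 tested members higher and 1 lower (Lhfpl3, -0.74; median 0.19).

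Of 27 astrocyte genes, 5 were higher, 0 were lower and 22 were not called (median 0.17), where 8.4% of all tested genes were higher. Gfap, the intermediate filament of astrocytes, had 115, 135 and 139 FPKM in hippocampus, against 30, 48.1 and 30.8 FPKM in prefrontal cortex (1.85, SE 0.17, adjusted p = 0.00031). Agt, angiotensinogen, had 10.6, 12.9 and 19.2 FPKM in hippocampus, against 1.28, 3.03 and 2.55 FPKM in prefrontal cortex (2.42, SE 0.28, adjusted p = 0.00077). Thbs4, a thrombospondin (1.67), Sparc, a matrix protein (0.81), and Lhx2 (0.40) were the other members called. Without prefrontal cortex replicate 2, 8 members were higher. The glutamate transporters Slc1a2 (0.03) and Slc1a3 (0.06), the water channel Aqp4 (0.14) and Aldh1l1 (-0.02) lay near zero.

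Microglia, endothelium and mural cells gave no calls in the 6 libraries together. Of 18 microglial, 16 endothelial and 12 pericyte and smooth muscle markers, limma called 0 in either direction, with medians of 0.05, 0.10 and 0.13. At an unadjusted p under 0.05 there were 2 microglial, 0 endothelial and 2 mural genes, and voom on recovered reads called 0 in each list. Without hippocampus replicate 1, 4 mural genes were higher and 1 microglial gene was lower, and 1 microglial gene was also lower with equal medians, with quantile normalization and with the gene length trend removed. Ctss, a lysosomal protease of microglia, averaged 89.2 ± 6.07 FPKM in hippocampus and 86.2 ± 7.66 FPKM in prefrontal cortex (SD, n = 3 each). Bsg, the endothelial glycoprotein basigin, averaged 298 ± 34.1 FPKM in hippocampus and 288 ± 32.6 FPKM in prefrontal cortex. Vtn, the pericyte gene vitronectin, averaged 44.1 ± 18.7 FPKM in hippocampus and 30 ± 6.22 FPKM in prefrontal cortex, with an adjusted p of 0.31. Of 5 tested red blood cell genes, limma and voom called 0 (median -0.20), and 0 had an unadjusted p under 0.05. The median was 0.80 without prefrontal cortex replicate 2 and 0.54 without hippocampus replicate 1. The summed level of all 7 red blood cell genes in the table, tested or not, ran from 49.6 to 89.3 FPKM in hippocampus. In prefrontal cortex it ran from 44 to 124 FPKM. The globin genes are near-identical copies whose reads the counting could split.

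Ventricular cell types stood higher in hippocampus. Of 11 tested ependymal genes, 9 were higher and 0 lower (median 1.80). Foxj1, the master regulator of motile cilia, had 5.97, 6.11 and 6.2 FPKM in hippocampus, against 0.518, 1.23 and 1.76 FPKM in prefrontal cortex (2.06, SE 0.25, adjusted p = 0.001). Ccdc153, a gene of ciliated cells, had 8.69, 9.49 and 9.84 FPKM in hippocampus, against 0.025, 0.646 and 1.67 FPKM in prefrontal cortex (3.17, SE 0.42, adjusted p = 0.0015). The hippocampal values were even and the prefrontal ones uneven, with replicate 1 lowest. Tmem212 (3.10), Rarres2 (1.89) and Dynlrb2, a dynein light chain (1.83), rose as well.

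Choroid plexus transcripts varied between the hippocampal libraries. Ttr, transthyretin, the thyroid hormone carrier of choroid plexus epithelium, had 29.7, 76.5 and 159 FPKM in hippocampus, against 7.81, 5.64 and 1.56 FPKM in prefrontal cortex (3.93, SE 0.64, adjusted p = 0.004). Kl, the co-receptor klotho, had 3.75, 3.97 and 4.97 FPKM in hippocampus, against 0.387, 0.577 and 0.512 FPKM in prefrontal cortex (2.25, SE 0.14, adjusted p = 4e-05). Of 17 members 7 passed the filter and 5 of these were higher, 3 of which had passed through hippocampus alone, so that their count and median do not describe the list. With no filter on low values, 8 of 17 were called higher and the median was 0.41. In a fit of all 18 libraries, 1 member was called. Kcnj13, Otx2, Aqp1 and Kcne2 did not pass the filter. The summed list was 95.3, 162 and 242 FPKM in hippocampus and 65.5 to 77.2 FPKM in prefrontal cortex.

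Meningeal fibroblast genes gave 2 higher and 0 lower of 14 tested (median 0.20), Dcn (2.08), which is also a CA1 marker, and Lum (0.91), a call that held in 2 of the 6 fits without a library. Of all genes tested, 8.4% were higher and 6.82% lower. Without hippocampus replicate 1, 4 members of the list were higher and its median was 0.60. Without hippocampus replicate 3, 1 member was higher and the median was -0.13. The summed level of all 15 genes of the list, tested or not, was 493, 1166 and 2260 FPKM in hippocampus. In prefrontal cortex it was 821, 1158 and 706 FPKM. Among the hippocampal libraries, replicate 3 had the highest sum of both the meningeal and the choroid plexus genes, and replicate 1 the lowest. Whether plexus or meninges in the dissected hippocampus takes part in any other difference was not tested.

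Receptor families changed subunit by subunit. Among 38 tested genes of glutamate receptors and their auxiliary subunits, 6 were higher and 15 lower (median -0.05). Shisa6, an auxiliary protein that holds AMPA receptors at the synapse, had 21.5, 16.3 and 17.7 FPKM in hippocampus, against 1.53, 1.62 and 1.89 FPKM in prefrontal cortex (3.12, SE 0.13, adjusted p = 6.7e-06). Gria1, an AMPA receptor pore subunit, had 186, 158 and 182 FPKM in hippocampus, against 72.6, 70.4 and 77.2 FPKM in prefrontal cortex (1.25, SE 0.09, adjusted p = 9.6e-05). The auxiliary genes Cnih2 (1.13) and Cacng8 (0.86) and the kainate subunit Grik4 (1.18) rose with them. The AMPA subunits Gria3 (-0.76) and Gria4 (-0.65) fell, as did the auxiliary genes Gsg1l (-1.18), Olfm2 (-1.08) and Cacng3 (-0.84), the kainate subunit Grik3 (-1.07) and the metabotropic receptors Grm8 (-1.03) and Grm4 (-0.80). The NMDA subunits Grin1 (0.09), Grin2a (0.55) and Grin2b (0.13) were not called.

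Of 23 genes of GABA and glycine receptors, 2 were higher and 8 lower (median -0.36). Gabra5, the subunit of extrasynaptic receptors that is known to be abundant in hippocampal pyramidal cells, had 64.5, 56.4 and 61.7 FPKM in hippocampus, against 22.1, 24.7 and 21.2 FPKM in prefrontal cortex (1.41, SE 0.09, adjusted p = 4.6e-05). Gabra3 had 26.9, 27.1 and 23.7 FPKM in hippocampus, against 69.2, 61.7 and 60.7 FPKM in prefrontal cortex (-1.29, SE 0.09, adjusted p = 7.1e-05). These alpha subunits thus moved in opposite directions, and Gabra2 (-0.58) and Gabra4 (-0.36) were not called. Gabrd, the delta subunit of tonic receptors, fell (-1.31), as did the glycine receptor genes Glra3 (-0.95), Glra2 (-0.94) and Glrb (-0.47). Kctd12, an auxiliary protein of GABA-B receptors, rose (0.71). The count of lower members was 5 without prefrontal cortex replicate 1.

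Voltage-gated potassium channel genes were lower more often than higher, 14 against 6 of 46 tested (median -0.10). Dpp10, an auxiliary protein of A-type channels, had 15, 17.2 and 12.3 FPKM in hippocampus, against 46.5, 43.4 and 44 FPKM in prefrontal cortex (-1.57, SE 0.12, adjusted p = 9.6e-05). Its relative Dpp6 rose (0.66). 4 genes of the list had passed the filter through prefrontal cortex alone, and 3 of these were called lower. Kcna5 (-2.04), Kcnv1 (-1.43), Kcnh7 (-1.41), Kcnt1 (-1.34) and Kcnf1 (-1.29) fell, while Kcnab2 (0.78) and Kcnn2 (0.68) rose. Of 24 calcium and sodium channel genes, 2 were higher and 3 lower (median -0.08), where 8.4% of all tested genes were higher and 6.82% lower. Scn3b, a sodium channel beta subunit, rose (1.03), as did the T-type channel gene Cacna1h (0.82). Scn4b, another beta subunit, which striatal neurons express, had 6.78, 6.79 and 6.47 FPKM in hippocampus, against 25.7, 26.2 and 70.4 FPKM in prefrontal cortex (-2.36, SE 0.33, adjusted p = 0.0021), and prefrontal replicate 3 was again the highest. Without hippocampus replicate 1, 6 calcium and sodium channel genes were lower, without prefrontal replicate 2, 5 were, and without any other single library the number was 1 or 2.

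Receptors for serotonin, dopamine and noradrenaline were split, with 7 of 21 tested higher and 8 lower (median -0.37). Drd5 rose while Drd1 and Drd2 fell. Drd5 had 5.37, 4.71 and 5.19 FPKM in hippocampus, against 0.877, 0.858 and 0.921 FPKM in prefrontal cortex (2.01, SE 0.11, adjusted p = 2.1e-05). Among serotonin receptors, Htr4 (1.60), Htr5b (1.36) and Htr1a (1.06) were higher. Htr2a, the receptor through which psychedelic drugs act, had 3.03, 2.36 and 2.35 FPKM in hippocampus, against 10.9, 6.08 and 11.3 FPKM in prefrontal cortex (-1.65, SE 0.22, adjusted p = 0.0015). Of the adrenergic alpha-1 genes, Adra1d rose (1.06), and Adra1b (-1.87) and Adra1a (-0.78) fell.

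In the group of acetylcholine, opioid, adenosine and cannabinoid genes, 6 of 19 tested were higher and 7 lower (median 0.10). Chrm5 (1.27), Chrna7, the alpha-7 nicotinic subunit (0.83), the anandamide hydrolase Faah (0.81) and Adora1 (0.61) rose. Adora2a, Oprk1 (-1.83), Chrm2 (-0.90), Chrm4 (-0.70) and Chrna4 (-0.68) fell.

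Neuropeptide and growth factor genes were lower in 12 and higher in 4 of 28 cases (median -0.33). Cartpt, the precursor of CART peptides, had 2.77, 3.73 and 2.63 FPKM in hippocampus, against 12.2, 13.8 and 20.1 FPKM in prefrontal cortex (-2.15, SE 0.19, adjusted p = 0.00023). Penk, Trh (-2.59), Tac1, Adcyap1, the precursor of PACAP (-1.57), and Pdyn (-1.33) were also lower. Ntf3 (1.96), Grp, gastrin-releasing peptide (1.70), and Pnoc (0.80) rose. Bdnf, the neurotrophin BDNF, had 8.18, 6.67 and 4.38 FPKM in hippocampus, against 6.89, 5.23 and 4.39 FPKM in prefrontal cortex, and its values overlapped.

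Among 31 tested receptors for peptides and steroids and enzymes that act on them, 4 were higher and 5 lower (median -0.06). Of all genes tested, 8.4% were higher and 6.82% lower. Npy2r, the presynaptic receptor for neuropeptide Y, had 12.3, 11.6 and 12.9 FPKM in hippocampus, against 0.989, 1.23 and 1.39 FPKM in prefrontal cortex (2.91, SE 0.12, adjusted p = 6.7e-06). Its ligand gene Npy, as given above, was lower. Hsd11b1, the enzyme that regenerates active glucocorticoid, had 28.2, 25.9 and 32.5 FPKM in hippocampus, against 8.17, 9.9 and 8.05 FPKM in prefrontal cortex (1.67, SE 0.12, adjusted p = 6.6e-05). It rose with Nr3c2, while the glucocorticoid receptor gene Nr3c1 (-0.31) had an adjusted p of 0.12. Cckbr, the brain cholecystokinin receptor, had 4.58, 8.55 and 4.3 FPKM in hippocampus, against 29.3, 27.4 and 22.6 FPKM in prefrontal cortex (-2.15, SE 0.23, adjusted p = 0.00052). Tacr1 (-1.13) and Sstr2 (-0.94) fell as well. The count of lower members was 3 without prefrontal cortex replicate 1 or without hippocampus replicate 3.

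Immediate early genes, which neurons switch on within minutes of activity, were lower in 15 and higher in 4 of 29 cases (median -0.55), with 11 to 14 lower in the fits that left out a library. Fos had 7.79, 10.2 and 7.35 FPKM in hippocampus, against 26.4, 24.4 and 17.4 FPKM in prefrontal cortex (-1.37, SE 0.17, adjusted p = 0.0012). Egr1 had 48.4, 69 and 43.7 FPKM in hippocampus, against 167, 122 and 114 FPKM in prefrontal cortex (-1.32, SE 0.19, adjusted p = 0.0023). No hippocampal library reached the lowest prefrontal one for either gene. Egr2 (-1.60), Nptx2 (-1.24) and Homer1 (-1.02) fell too. Jun went the other way, with 41.7, 37.2 and 42.2 FPKM in hippocampus, against 15.1, 16.4 and 15.4 FPKM in prefrontal cortex (1.34, SE 0.08, adjusted p = 4e-05). Nr4a3 (1.31), Nr4a2 (0.87) and the phosphatase Dusp5 (0.78) rose with it, while their relative Nr4a1 (-0.81) fell. Arc, the activity-regulated cytoskeletal gene, had 43.5, 61.5 and 51.5 FPKM in hippocampus, against 102, 76.1 and 64.1 FPKM in prefrontal cortex and was not called (adjusted p = 0.053).

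Of 59 tested axon guidance genes, 21 were higher, 10 were lower and 28 were not called (median 0.20). Slit1, a secreted repellent that binds Robo receptors, had 25.3, 20.3 and 24.5 FPKM in hippocampus, against 7.18, 5.08 and 6.89 FPKM in prefrontal cortex (1.80, SE 0.14, adjusted p = 0.00012). Nrp1, the co-receptor for class 3 semaphorins, rose (1.47, SE 0.14, adjusted p = 0.00028), while its ligand gene Sema3a fell (-1.52, SE 0.19, adjusted p = 0.001). Nrp1 averaged 8.45 ± 1.55 FPKM in hippocampus and 2.71 ± 0.204 FPKM in prefrontal cortex, and Sema3a averaged 0.445 ± 0.268 and 2.15 ± 0.0448 FPKM in hippocampus and prefrontal cortex (SD, n = 3 each). Of the Eph receptors, Epha6 (1.26), Epha4 (1.03) and Epha7 (0.85) rose, and the ephrin gene Efna5 fell (-1.22). The count of higher members was 13 without hippocampus replicate 2.

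Cadherin and synaptic adhesion genes were lower in 18 and higher in 9 of 58 cases (median -0.11). Pcdh20, a protocadherin, had 27.2, 22.8 and 23 FPKM in hippocampus, against 4.93, 4.64 and 3.46 FPKM in prefrontal cortex (2.37, SE 0.14, adjusted p = 2.5e-05). Pcdh19 (1.08) and Lrrtm1 (0.99) rose. The contactin Cntn4 (-1.27), Lrrtm3 (-1.26), Pcdh10 (-1.20), Pcdh7 (-1.17), Cdh6 (-1.16) and Cdh22 (-1.16) fell, so that both the protocadherin and the Lrrtm genes had members in each direction.

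In the Wnt pathway, 4 of 38 tested genes were higher and 9 lower (median 0.04). Of all genes tested, 8.4% were higher and 6.82% lower. Dkkl1, a soluble protein related to Dickkopf inhibitors, had 2.11, 6.14 and 1.89 FPKM in hippocampus, against 26.4, 31.7 and 23.9 FPKM in prefrontal cortex (-3.00, SE 0.34, adjusted p = 0.00077). The receptor Lgr5 (-1.47), the inhibitor Sfrp1 (-1.19) and the ligands Wnt10a (-1.10) and Wnt9a (-0.98) fell, and Nkd2, an intracellular inhibitor, rose (1.63). Without prefrontal cortex replicate 1, 2 members were higher and 5 lower, and without hippocampus replicate 3, 5 were lower. Of 18 tested retinoid genes, 2 were higher and 2 lower (median 0.21), with the retinal dehydrogenase Aldh1a1 (0.81) and Ttr higher and the receptors Rxrg and Rarb (-1.55) lower. Of 24 tested genes of perineuronal nets and matrix, 6 were higher and 3 lower (median 0.08), led by Thbs4, the laminin Lamb1 (0.93) and Sparc in the higher direction and the collagen Col6a1 (-1.15) in the lower. The count of higher matrix genes was 3 without prefrontal cortex replicate 1 or without hippocampus replicate 2, and the count of lower ones was 0 without either of these or prefrontal replicate 3, and 1 without hippocampus replicate 3.

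Housekeeping groups held no called genes. Of 38 cytosolic ribosomal protein genes and 40 nuclear genes of oxidative phosphorylation, 0 were called in limma or voom and 0 had an unadjusted p under 0.05, and the medians were 0.18 and 0.03. With the gene length trend removed, 2 genes of oxidative phosphorylation were lower and their median was -0.04. The ribosomal median was 0.09 in that fit, 0.07 without prefrontal cortex replicate 1 and 0.33 without prefrontal cortex replicate 2. Rplp1, a ribosomal stalk protein, averaged 1276 ± 307 FPKM in hippocampus and 1080.01 ± 235 FPKM in prefrontal cortex, and Atp5b, an ATP synthase subunit, averaged 756 ± 75.8 and 737 ± 47.1 FPKM in hippocampus and prefrontal cortex (SD, n = 3 each).

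The regional differences were then looked up in the 5xFAD mice, whose libraries took no part in the wildtype fit. In 5xFAD mice given PBS, 3102 of 13177 genes tested there were called (23.5%), 14.4% higher and 9.16% lower in hippocampus. Of the 1951 wildtype calls, 1921 were tested there, 1890 of them (98.4%) had the same direction, and 1500 (78.1%) were called in that direction. In 5xFAD mice given vesicles, 1275 of 13109 genes were called (9.73%), 4.76% higher and 4.97% lower. There, 1907 wildtype calls were tested, 1854 (97.2%) had the same direction, and 973 (51.0%) were called in it. Among tested genes that were not called in wildtype mice, 73.1% and 69.7% had the same direction in the PBS and vesicle groups.

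Of the wildtype calls over 2-fold, 459 of 461 had the same direction in 5xFAD PBS mice and 435 were called, and 446 of 450 had it in the vesicle group, where 355 were called. C1ql2 had a log2 fold change of 5.72 in 5xFAD PBS mice and 5.57 in 5xFAD vesicle mice, beside 5.92 in wildtype mice. Spink8 (3.32 and 4.22) and Fibcd1 (3.25 and 3.56) in these groups, and Abi3bp (-2.94 and -3.26) and Rasgef1c (-3.26 and -2.59), lay close to their wildtype values of 3.86, 3.39, -3.28 and -3.00.

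Other genes had different values there. Ttr had a log2 fold change of 9.65 in 5xFAD PBS mice, where its mean was 4638 FPKM in hippocampus and 4.47 FPKM in prefrontal cortex, and Kl had 5.09. All 17 choroid plexus genes were tested and called higher in 5xFAD PBS mice (median 3.91), while 0 of 16 were called in the vesicle group (median 2.24). In wildtype mice 7 had passed the filter. The filter was applied to each group's own libraries, and how many 5xFAD members passed through hippocampus alone was not counted. Neurod1 was at 1.06 in 5xFAD PBS mice and -0.20 in the vesicle group, and Wfs1 was at -0.03 and 0.07. Fos was at -0.51 and -0.43, beside -1.37 in wildtype mice. Of 28 immediate early genes tested in 5xFAD PBS mice, 4 were higher and 7 lower (median -0.17), and in the vesicle group 3 were higher and 2 lower (median -0.10). All 18 striatal genes tested in 5xFAD PBS mice were lower (median -1.96), and 3 of 16 were lower in the vesicle group (median -1.18). Of 18 microglial genes, 12 were higher in 5xFAD PBS mice (median 0.45) and 0 in the vesicle group (median 0.56), with 0 lower in either.

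4 of the wildtype calls were called in the opposite direction in 5xFAD PBS mice and 0 in the vesicle group. They are named here after their values were seen: Sulf1, Htr2c, Pla2g5 and Steap2. Sulf1 averaged 1.22 ± 0.0951 FPKM in wildtype hippocampus and 4.32 ± 0.556 FPKM in wildtype prefrontal cortex, and 9.7 and 3.83 FPKM in the same tissues of 5xFAD PBS mice. Htr2c, a serotonin receptor that choroid plexus also expresses, had a log2 fold change of -0.70 in wildtype and 0.53 in 5xFAD PBS mice.

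The test of the difference itself, limma's interaction of tissue and mouse group over all 18 libraries, called 0 of 13574 genes for 5xFAD PBS mice and 0 for 5xFAD vesicle mice. At an unadjusted p under 0.05 there were 787 and 561 genes, and limma-voom on reads recovered from the FPKM also called 0 and 0. For Sulf1 the interaction was 2.65 with an adjusted p of 0.53, and for Ttr it was 5.72 with an adjusted p of 0.69. A fit on the 12 wildtype and 5xFAD PBS libraries alone called 42 genes.

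**Figure D5:**
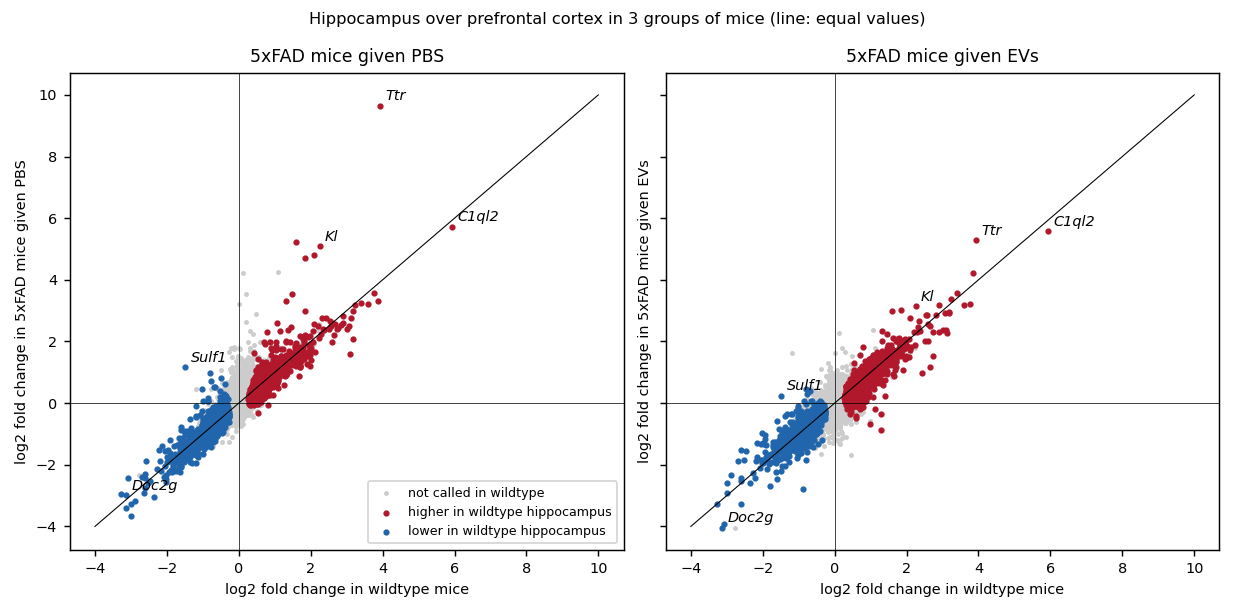
Log2 fold change of hippocampus over prefrontal cortex in 5xFAD mice (vertical axis; PBS on the left, extracellular vesicles, EVs, on the right) against that in wildtype mice (horizontal axis), 1 point per gene tested in both, with the line of equal values. Of the coloured wildtype calls, 98.4% on the left and 97.2% on the right have the same direction, and Ttr lies far above the line on the left, at 9.65 against 3.93.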

How the data were processed

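RNA from hippocampus and prefrontal cortex was extracted with Trizol, made into libraries with a VAHTS Universal V5 kit and read by a NovaSeq sequencer, as the protocols in the labels state. The values are gene FPKM as deposited by the authors. The submitters' processing notes name fastp, HISAT2, HTSeq and GRCm39. Whether counting used strand is not given in the sources used here, so overlapping and antisense genes cannot be separated, and near-identical genes are uncertain.

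Samples were grouped by title. Genes that reached 0.5 FPKM in 3 or more wildtype libraries were compared on log2(FPKM + 0.5) with limma 3.58.1 (R 4.3.3), using moderated variances with an intensity trend and Benjamini-Hochberg adjustment at 0.05. The 5xFAD groups were fitted separately by the same steps, and interactions of tissue and mouse group were fitted over all 18 libraries. The steps were also run on simulated counts with the same dispersion for every gene and no gene length trend. That setting is simpler than these data, so the run does not measure error rates in them.

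FPKM were whole multiples of a read value for 100% of genes (tolerance 1e-06), and the implied gene lengths were whole for 99.6% (tolerance 0.01). The recovered reads gave the depths and a voom fit, which was added after the data had been seen and called 2009 genes. The other alternatives were pseudocounts of 0.1 and 1, no filter, a mean of at least 1 FPKM, equal medians, quantile normalization, removal of a gene length trend, limma without the intensity trend, all 18 libraries in the fit, a replicate block, and leaving out each library.

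Named genes include the 15 largest called rises and falls without overlap between the tissues and with a mean of at least 1 FPKM in the higher tissue. Symbols that are Gm or LOC numbers, Rik clones, other clone numbers or pseudogenes were left out of that ranking. Up to 6 called genes per list (the 2 most abundant where none was called) and 12 markers, whatever their result, were named as well. Some genes that this rule takes in are not reported here. Other list members were named after their values were seen. The comparison and the 41 gene lists were chosen with earlier results of these data known. Lists share members, and their counts and medians are descriptions. Promoters come from RefSeq (GRCm38.p6), a build other than that of the files, and were matched by gene. Between replicates of a tissue, chi-square per gene of the recovered reads ran from 16.0 to 48.6, so none was a repeated library.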

Additional observations from a re-analysis of the deposited data

How the results depend on the processing

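The count of 1951 called genes lay between 1252 and 1976 when each library was left out in turn, with 1252 without prefrontal cortex replicate 1. Under the other settings it ran from 1720 (mean of at least 1 FPKM) to 2685 (gene length trend removed), and the count over 2-fold ran from 349 (pseudocount 1) to 684 (voom), beside 476. Equal medians put 49.7% and quantile normalization 50.2% of calls in the higher direction, beside 55.2%. Of 177 called named genes, 27 lost the call under at least 1 alternative, none reversed, and 2 uncalled ones gained a call.

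Equal replicate numbers are not stated to mark the same mouse, so they were not taken to pair the samples. Same-numbered libraries of both tissues deviated from their group means with correlations of 0.326, 0.186 and -0.292. Hippocampus replicates 1 and 3 correlated best with prefrontal replicates 3 (0.359) and 2 (0.431). The libraries of each of these best pairs also share the sign of their gene length slope. The correlations therefore cannot show which libraries come from the same mouse. With a replicate block, 1772 genes were called, 484 of them over 2-fold, and the interaction tests called 0.

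The interaction with 5xFAD PBS called 42 genes with the 12 libraries of those mouse groups alone, and 0 over all 18 libraries and in every other setting, and the cause was not tested. List counts that moved from or to 4 or more calls by over 1.5 times, beside those given in the report, were 8 higher astrocyte genes and 8 higher peptide and steroid receptors with the length trend removed, 3 lower peptide and steroid receptors with no filter, 2 higher Wnt genes with all 18 libraries, 5 lower calcium and sodium channel genes with equal medians, quantile normalization, voom or the length trend removed, and 5 higher genes of that list and 4 higher retinoid genes with the length trend removed. List medians that changed sign beside those given in the report, of those over 0.08 in size, were -0.03 for acetylcholine, opioid, adenosine and cannabinoid genes with no filter, and 0.07 for layer 4 and 5 neurons and -0.04 for thalamus with a mean of at least 1 FPKM, and 0.00 for subiculum without prefrontal cortex replicate 3.

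With 3 libraries a tissue, an exact permutation test of a single gene cannot go below p = 0.1, so single genes rest on the variance limma shares across genes.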

Other observations

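Transcription factors, as the deposited table assigns them, were called about as often as other genes. Of 886 tested, 74 were higher and 55 lower in hippocampus, which is 14.6%, against 15.3% of the other genes. Families differed in their counts. Of 56 basic helix-loop-helix genes, 13 were higher and 3 lower (median 0.13), and of 20 forkhead genes 7 were higher and 1 lower (median 0.18). Of 43 homeobox genes, 7 were higher and 8 lower (median 0.04), and of 404 C2H2 zinc finger genes 12 were higher and 16 lower (median -0.03). The families were not compared by a test.

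The factors with the largest rises after Prox1, Foxj1, Nr3c2, Lhx9 and St18 were Tshz2 (1.66), the PR domain factor Prdm8 (1.58), Bhlhe22 (1.41) and Mycl, a relative of Myc (1.37). Bhlhe22, a helix-loop-helix repressor of projection neurons, had 34.2, 30.6 and 28.7 FPKM in hippocampus, against 12.6, 11.5 and 10.1 FPKM in prefrontal cortex. The lowest were Foxp2 (-2.20), Rxrg (-1.95), Meis2 (-1.84), Eomes (-1.80) and Mef2c (-1.68). Mef2c, which regulates activity-dependent synapse number, had 3.65, 5.65 and 2.37 FPKM in hippocampus, against 13.8, 12.2 and 12.8 FPKM in prefrontal cortex, and no library of one tissue reached the range of the other.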
